A study of Homo sapiens with 9 samples.

Results

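MCF10A cells carrying an ERBB2 retrovirus were compared directly with MCF10A cells given EGF for 2 h. MCF10A is a human breast epithelial line that does not form tumours and depends on added EGF for growth. The members were the 6 one-colour expression arrays titled for ERBB2 over-expression or for EGF stimulation, 3 of each, out of 9 in the series. The other 3 arrays, from cells with the empty virus and no EGF, are given beside them as vector arrays. In the ERBB2 group the cells had been transduced with pBabe-ErbB2. In the EGF group they had been transduced with empty pBabe and given EGF at 50 ng/ml for 2 h before harvest. All cells had been grown in DMEM/F12 whose additives were insulin at 10 microgram/ml, cholera toxin at 100 ng/ml, hydrocortisone at 0.5 microgram/ml, EGF at 20 ng/ml and horse serum at 5%, and after infection went into EGF-free medium containing 2% horse serum. The groups therefore differed in the virus and in the EGF pulse, and whether a difference goes with the kind of signal or with how long it lasted cannot be told apart. The sources used here give neither the time without EGF nor whether replicates came from separate infections. The labels call the replicates biological, and p-values measure only the spread between these samples.

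EGF binds the receptor tyrosine kinase EGFR and switches on the RAS-ERK and PI3K-AKT pathways. Within minutes to hours ERK induces immediate early transcription factors, then feedback inhibitors that damp the signal and ligands that extend it. ERBB2 has no known ligand of its own, pairs with EGFR and ERBB3, and can signal without added ligand when its level is high. AKT keeps FOXO factors out of the nucleus, so genes that FOXO drives under growth factor withdrawal fall when the pathway is on. Entry into S phase and mitosis follows growth factor addition only after many hours.

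The deposited values are linear signals, one per probe set and array, and log2 changes below are differences of log2(signal + 16), ERBB2 minus EGF, so the changes of dim genes are understated. Each gene is represented by its brightest probe set, "measured" means that this probe set passed the filter on low signals, and "called" means a limma adjusted p under 0.05. Within groups the arrays correlated at 0.979 to 0.982 (EGF) and 0.970 to 0.974 (ERBB2), and between the groups at 0.944 to 0.957. Some control probe sets also separated the groups. For ACTB, the 5' control divided by the 3' control gave 0.737 ± 0.0513 (SD, n = 3) in the ERBB2 group against 0.443 ± 0.0634 in the EGF group, and the 3' control of 18S ribosomal RNA read 12587 ± 826 against 2868 ± 673. The median signal lay between 17.9 and 20.1 in the ERBB2 group and between 15.6 and 16.9 in the EGF group. None of these ranges overlapped (exact permutation p = 0.1 for each, two-sided, the smallest that 3 against 3 allows). The same ratio for GAPDH was 0.869 ± 0.0318 against 0.812 ± 0.0452, with overlapping ranges (exact permutation p = 0.2), and the 3' controls of GAPDH (exact permutation p = 0.2) and ACTB (exact permutation p = 1) were not separate either. The controls that move with the group stand beside every gene group described here, and their part in the results was not tested.

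The transcript that should mark the ERBB2 group did not separate it from the EGF group at its brightest probe set. That ERBB2 probe set read 114, 72.2 and 110.2 in the 3 arrays of the ERBB2 group and 128, 81.9 and 102 in the EGF arrays. The values overlapped (log2 change -0.07 ± 0.20 SE, limma adjusted p = 0.856). A dimmer probe set read 34.1, 34.2 and 38.5 against 16.8, 15.02 and 14.5, without overlap but not called (0.71 ± 0.26, adjusted p = 0.0514), and the last one was at 0.12. Against vector arrays the brightest probe set was called lower in the ERBB2 group (-0.71, limma adjusted p = 0.00665), as it was in the EGF group (-0.65). The dimmer one was called higher in the ERBB2 group than in vector arrays (0.89, limma adjusted p = 0.00926), and the last was not called (0.10). The sources used here do not say where the probes lie or which part of ERBB2 the virus carried. The arrays are therefore called "labelled ERBB2", and every direction given for them rests on that label.

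Epithelial markers of the line were bright in both groups, and most of those measured differed between them. Among 9 measured markers the arrays labelled ERBB2 were higher for the keratin KRT18 and the adhesion molecule EPCAM and lower for 6. That is 88.9% called, against 28.8% of all genes and 49.3% of the single-gene probe sets in the brightest of 4 equal bins of signal. The summed signal was 29434 to 31446 against 35783 to 41305. Fibroblast markers were near the floor apart from DCN and FAP: COL3A1, LUM, PDGFRA, PDGFRB and COL6A3 did not pass the filter on low signals. Their summed signal was 708 to 829.2 in the arrays labelled ERBB2 and 571 to 658 in the EGF arrays, and 1 of the 5 that passed the filter was called, FAP (2.37). Of 11 blood and endothelial markers with a single-gene probe set 4 passed the filter, PECAM1 was called higher (0.94) and the sums overlapped (304 to 356.9 against 278.5 to 327.2). In such bulk RNA, fewer cells of a type and less RNA per cell cannot be told apart.

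Over the whole array the comparison was broad, and most called changes were small. Of 13736 genes tested, 3959 were called, or 28.8%, with 1761 higher in the arrays labelled ERBB2 (12.8%) and 2198 lower (16%). Changes of at least 2-fold were called for 359 genes in the higher and 340 in the lower direction. Over all 26405 probe sets of a single gene, 3380 were called higher (12.8%) and 3455 lower (13.1%), with a median change of 0.03. Over all 32768 probe sets 23.8% were called. The share of single-gene probe sets called went from 4.67% in the dimmest of 4 equal bins of signal to 49.3% in the brightest, and the median SE from 0.299 to 0.103. The shares called in gene lists are set beside the 28.8% of all genes and were not matched for signal. A list share above 28.8% but not above 49.3% therefore does not by itself set a list apart from bright genes. When the arrays were instead given equal medians, the median change of all 32768 probe sets moved from 0.028 to -0.083 and the share of higher among called probe sets from 48.8% to 31.9%. Small changes are therefore relative to the authors' scaling. In each list, brighter uncalled members were named because their changes were the smallest, so the small size of those changes only describes the choice. The scatter of log2 change against signal shows the genes with the largest changes.

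**Figure D1:**
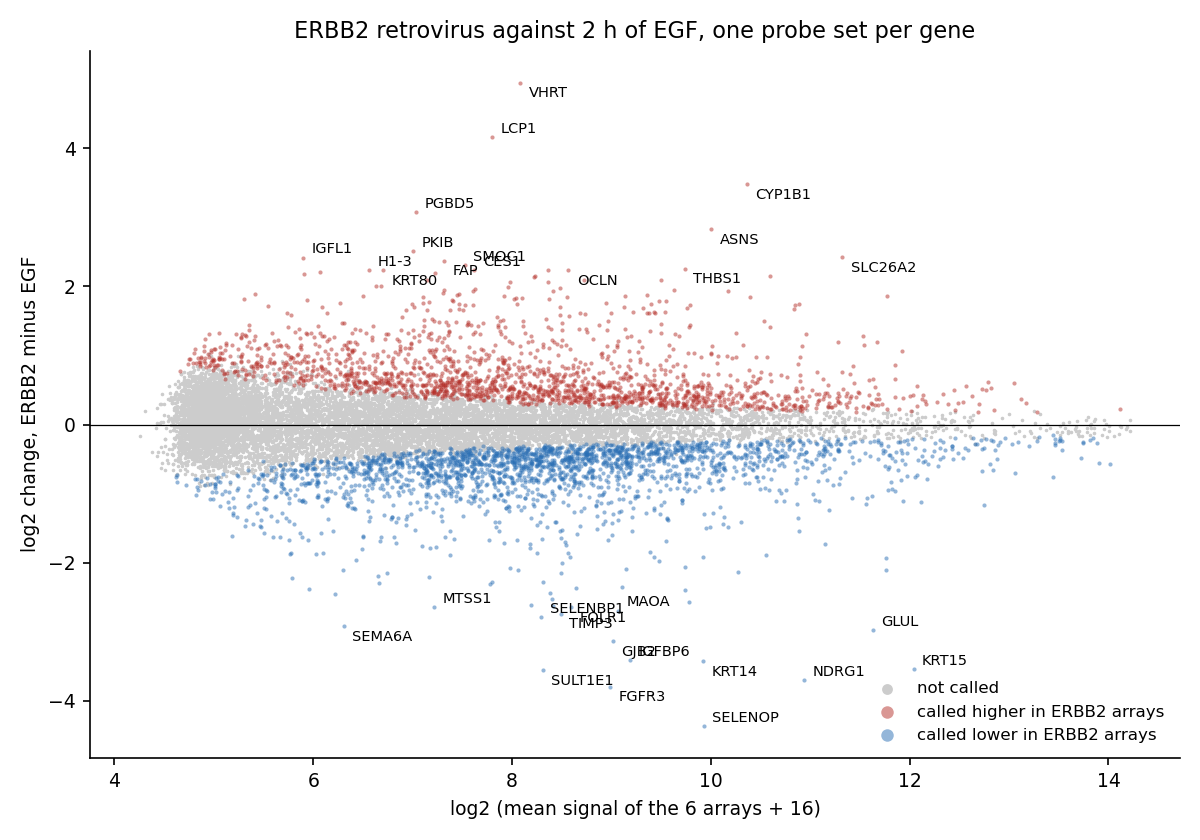
Each point is a gene, placed by log2 of the mean signal of the 6 arrays plus 16 (x) and by its log2 change, ERBB2 minus EGF (y). Red and blue mark genes called higher and lower in the arrays labelled ERBB2 and grey those not called, and the 30 named genes run from VHRT at 4.94 to SELENOP at -4.36.

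Those immediate early transcription factors that were called were all lower in the arrays labelled ERBB2 than after 2 h of EGF. Of 24 immediate early transcription factors 20 were measured, and 11 were called lower and none higher, against 16% and 12.8% of all genes, and the median change was -0.34 against 0.01 over all genes (-0.612 with a filter at the 60th percentile). FOS, a subunit of the AP-1 factor, read 98.2, 140.5 and 111 in the arrays labelled ERBB2 and 521, 572 and 616 in the EGF arrays. The groups were far apart (-2.15 ± 0.14 SE, limma adjusted p = 5.28e-10), and the vector arrays, at 327, 237 and 259.9, lay between them. EGR1, a zinc finger factor induced by serum and growth factors, read 891, 940.5 and 1195 against 2197, 2192 and 2133. It did not overlap either (-1.11 ± 0.11, adjusted p = 1.67e-07), and here both groups stood far above the vector arrays at 128, 146 and 160.3. EGR3, a relative of EGR1, read 27.1, 17.6 and 2.004 against 74.8, 59.4 and 59.9. The arrays labelled ERBB2 spread around the vector level for it (-1.44, adjusted p = 0.000602). KLF2, a zinc finger factor, lay on the other side. It read 41.9, 24.7 and 28.8 against 14.8, 17.2 and 0.742 without overlap and was not called (0.88 ± 0.33, adjusted p = 0.0584), but it was called higher in 5 alternatives, among them a fit of the 6 arrays alone (0.875, adjusted p = 0.041) and the fits leaving out EGF replicate 2 (1.058, adjusted p = 0.0471) or replicate 1 of vector (adjusted p = 0.0344).

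The remaining factors differed by less. JUNB (-1.01), JUN (-0.72) and FOSL2 (-0.96), further AP-1 subunits, were called lower. So were the Krueppel-like factors KLF5 (-1.09), KLF6 (-0.80) and KLF4 (-0.61), the last not with the mean of its probe sets (-0.204, adjusted p = 0.257). Against vector arrays, the EGF arrays were called higher for JUNB (0.65) and KLF6 (0.27) and lower for FOSL2 (-1.83) and KLF4 (-1.23). JUN (0.19) and KLF5 (0.05) were not called between EGF and vector arrays. MYC, the growth regulator, read 6095, 4695 and 5156 against 7127, 6938 and 6108. These values came close without overlapping (-0.34 ± 0.09, adjusted p = 0.00545), and the call was lost without a variance trend (adjusted p = 0.106). MAFF, a small MAF factor, was called at -0.34, but not without a variance trend (adjusted p = 0.0515) or with the mean of its probe sets (-0.146, adjusted p = 0.193). FOSL1, the AP-1 subunit known to stay up under lasting ERK activity, averaged 204 ± 3.87 (SD, n = 3) against 242 ± 8. It was not called although the groups did not overlap (-0.23 ± 0.13, adjusted p = 0.225), while the vector arrays read 56.1, 66.2 and 49.8. JUND was at 0.20 (adjusted p = 0.135), KLF10 at -0.24 and SRF at 0.24, none of them called. JUND was called higher without ERBB2 replicate 2 (0.281, adjusted p = 0.0442) and with the mean of its probe sets (0.347). ATF3, EGR4, NR4A1 and NR4A2 were dim and lay within 0.18 of 0. KLF10 was called lower with equal array medians (-0.349, adjusted p = 0.00827) and without EGF replicate 3 (-0.339, adjusted p = 0.0174).

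Among 26 measured of 30 other immediate and delayed early genes, 14 were called lower and 3 higher (median -0.34). That is 65.4% called against 28.8% of all genes. PHLDA1, a pleckstrin-homology protein, read 172, 163 and 158 against 889, 934 and 895 and 49.6, 73.97 and 45.7 in vector arrays. Its EGF arrays stood apart from both other groups (-2.36 ± 0.13, adjusted p = 1.08e-10). PHLDA2 (-1.24), the RNA decay factor ZFP36L1 (-1.30) and ID1, an inhibitor of helix-loop-helix factors (-1.06), followed the same direction. CCN1, a matricellular protein, went the other way. It read 384, 395 and 404 against 145, 177 and 162 (1.22 ± 0.17, adjusted p = 1.58e-05). ID3 was likewise higher (0.56), with means of 441.4 against 290.6, both under the 1086 of vector arrays. IER2 was at -0.05 and TOB1 at -0.01, neither called, although the mean of the TOB1 probe sets was called higher (0.747).

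**Figure D2:**
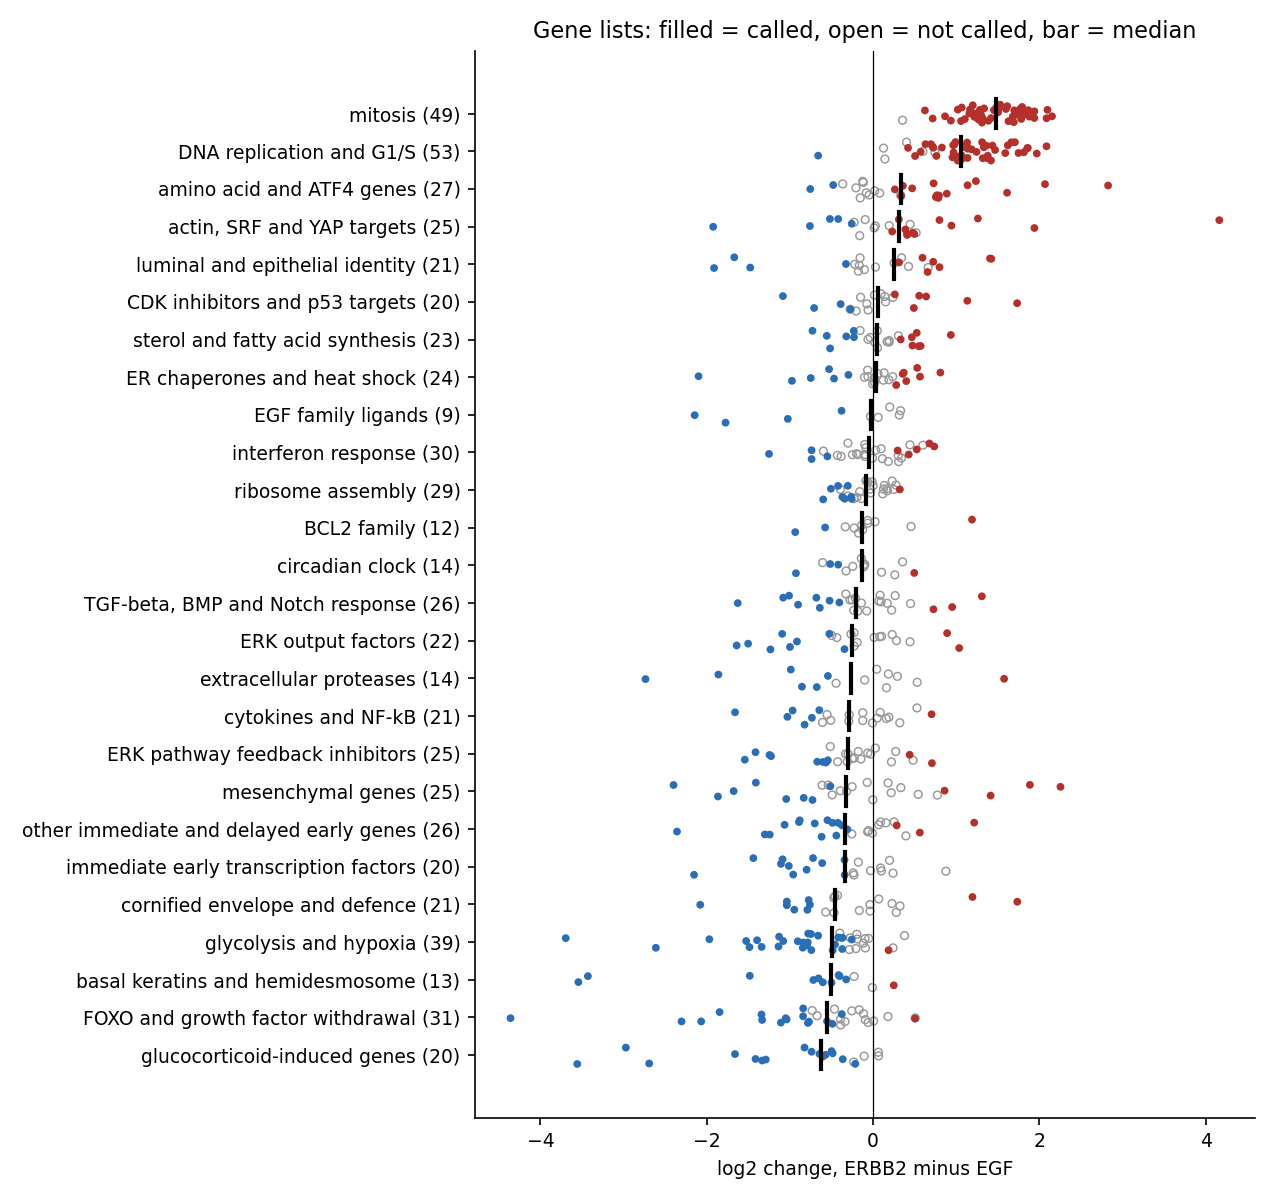
Each row is a list of genes and each point the log2 change of one measured member, ERBB2 minus EGF, with filled points called (red higher, blue lower), open points not called and a black bar at the median. Mitosis (1.48) and DNA replication (1.06) lie furthest to the right, and the glucocorticoid-induced (-0.63) and FOXO (-0.55) lists furthest to the left.

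Feedback inhibitors of the ERK pathway were split between strong and weak differences. Of 25 measured (26 listed), 8 were called lower and 2 higher (median -0.30), and 15 were not called. That is 40% called against 28.8% of all genes and 49.3% of single-gene probe sets in the brightest bin of signal. DUSP6, the phosphatase that removes phosphate from ERK in the cytoplasm, read 1228, 790.2 and 869.9 in the arrays labelled ERBB2 against 2601, 2737 and 3030 with EGF. Its mean in the EGF arrays was 2.9 times that in the arrays labelled ERBB2 (-1.54 ± 0.18, adjusted p = 2.05e-06), and the vector arrays were far below both at 1.01, 15.5 and 11.8. The 2 further DUSP6 probe sets gave -1.78 and -1.42. DUSP7, a close relative, was at -1.24 and DUSP5, which acts on ERK in the nucleus, at -0.67. DUSP4, also nuclear, read 660.0, 557 and 609.6 against 611, 621 and 678. Its groups overlapped (-0.06 ± 0.12, adjusted p = 0.759), and the vector arrays were at 135, 92.2 and 119. DUSP1 was called at -0.60, a call lost when its probe sets were averaged (-0.230, adjusted p = 0.0729).

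ERRFI1, which binds and inhibits EGFR and ERBB2 kinases, stood out among the inhibitors that act on receptors. It read 739, 668 and 614 against 1914, 1756 and 1780, and the vector arrays, at 1899, 1792 and 1843, overlapped the EGF arrays (-1.41 ± 0.08, adjusted p = 1.23e-10). LRIG3, a transmembrane receptor regulator, was lower too (-1.23). SPRY2, an inhibitor of RAS activation, was higher in the arrays labelled ERBB2. It read 466, 399.5 and 452 against 256, 282 and 249.6, with no overlap (0.71 ± 0.11, adjusted p = 0.0001). DUSP14 was also higher (0.44). Its means were 492 in the arrays labelled ERBB2, 358.1 with EGF and 521 in vector arrays. SPRY4 and SPRED1, relatives of SPRY2, were called lower (-0.57, adjusted p = 0.0367, and -0.54, adjusted p = 0.0154), but neither call was stable. That of SPRY4 was lost in 9 alternatives, each ERBB2 or EGF array left out among them (adjusted p from 0.0538 to 0.123). That of SPRED1 was lost in 5, which included those without ERBB2 replicate 1 (-0.380, adjusted p = 0.0989), ERBB2 replicate 3 (adjusted p = 0.0535) or EGF replicate 1 (adjusted p = 0.0596) and with its probe sets averaged (-0.164, adjusted p = 0.436). SPRED2 (-0.15), SPRY1 (-0.03) and SOCS5 (0.03) were not called. The ubiquitin ligases CBL (-0.31) and CBLB (-0.30) were not called either, but were with equal array medians (-0.422 and -0.411). CBL was also called without ERBB2 replicate 3 (-0.428, adjusted p = 0.0196).

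Targets further down the pathway were similarly split. Of 22 ERK output genes, 8 were called lower and 2 higher, or 45.5% called against 28.8% of all genes (median -0.25). HMGA2, an architectural chromatin protein, read 143, 165 and 169 against 561, 510.0 and 514 (-1.64 ± 0.22, adjusted p = 1.15e-05). ELK3, an ETS factor (-1.23), and the membrane protein EMP1 (-1.09) were also lower. ETV4, a PEA3-family ETS factor, showed the opposite order. It read 127, 84.3 and 110.3 in the arrays labelled ERBB2, 42.5, 40.9 and 47.2 with EGF and 6.78, 2.58 and 6.48 in vector arrays, so that no 2 groups overlapped (1.04 ± 0.21, adjusted p = 0.000909). LIF, a cytokine, was the other member called higher (0.89, adjusted p = 0.0179). It was not called without ERBB2 replicate 1 (adjusted p = 0.0593), without EGF replicate 1 (adjusted p = 0.0697), with a pseudocount of 1 or without a filter. EPHA2, an ephrin receptor, was at 0.01 and the urokinase receptor PLAUR at 0.08, neither called.

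EREG, HBEGF and TGFA, all ligands of EGFR, were high after EGF and at or near the vector level in the arrays labelled ERBB2. Of 9 measured among 12 ligands and sheddases 4 were called lower and none higher. That is 44.4% called against 28.8% of all genes. The median of the 9, -0.03, rested on single arrays and on the filter. It was 0.007 without ERBB2 replicate 1, -0.056 without replicate 2 and -0.14 without replicate 3, 0.016 without EGF replicate 1, -0.151 without EGF replicate 2, and -1.025 with a filter at the 60th percentile. EREG (epiregulin) read 22.4, 25.1 and 22.9 in the arrays labelled ERBB2, 169.6, 161 and 146 with EGF and 26.6, 19.8 and 24.9 in vector arrays. The first and last groups overlapped, and the EGF arrays were apart from both (-2.14 ± 0.18, adjusted p = 3.01e-08). HBEGF, the heparin-binding ligand, read 50.3, 49.04 and 57.6 against 212, 234 and 206 (-1.77 ± 0.18, adjusted p = 2.93e-07). TGFA read 165, 118 and 139 against 331, 287 and 287 (-1.03 ± 0.13, adjusted p = 6.3e-06). Neither of these ligands overlapped between the groups. When the TGFA probe sets were averaged its change was no longer called (adjusted p = 0.122). Among the sheddases that release the ligands, ADAM10 was lower (-0.38) with its brightest probe set but not with the mean of its probe sets (-0.201, adjusted p = 0.109) or without a variance trend (adjusted p = 0.0544). ADAM17 was at -0.03. BTC, NRG1, NRG2 and ADAM19 were dim and not called.

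The receptors themselves differed in opposite directions. EGFR read 833, 974 and 1119 in the arrays labelled ERBB2 and 2039, 1796 and 1785 in the EGF arrays. The EGF arrays lay at the vector level of 1913, 1932 and 1659, and the arrays labelled ERBB2 were all lower (-0.94 ± 0.10, adjusted p = 5.37e-07). Of its 6 other probe sets past the filter 2 were called, both lower (-1.06 and -0.66). ERBB3, the kinase-impaired partner of ERBB2, read 60.5, 70.7 and 70.6 against 22.2, 32.4 and 42.4. It was higher in the arrays labelled ERBB2 (0.80 ± 0.19, adjusted p = 0.00324), as at 2 other probe sets (0.70 and 0.64), with both groups under the vector arrays at 133, 98.95 and 109.7. ERBB4 was below the filter at all 4 of its probe sets.

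**Figure D3:**
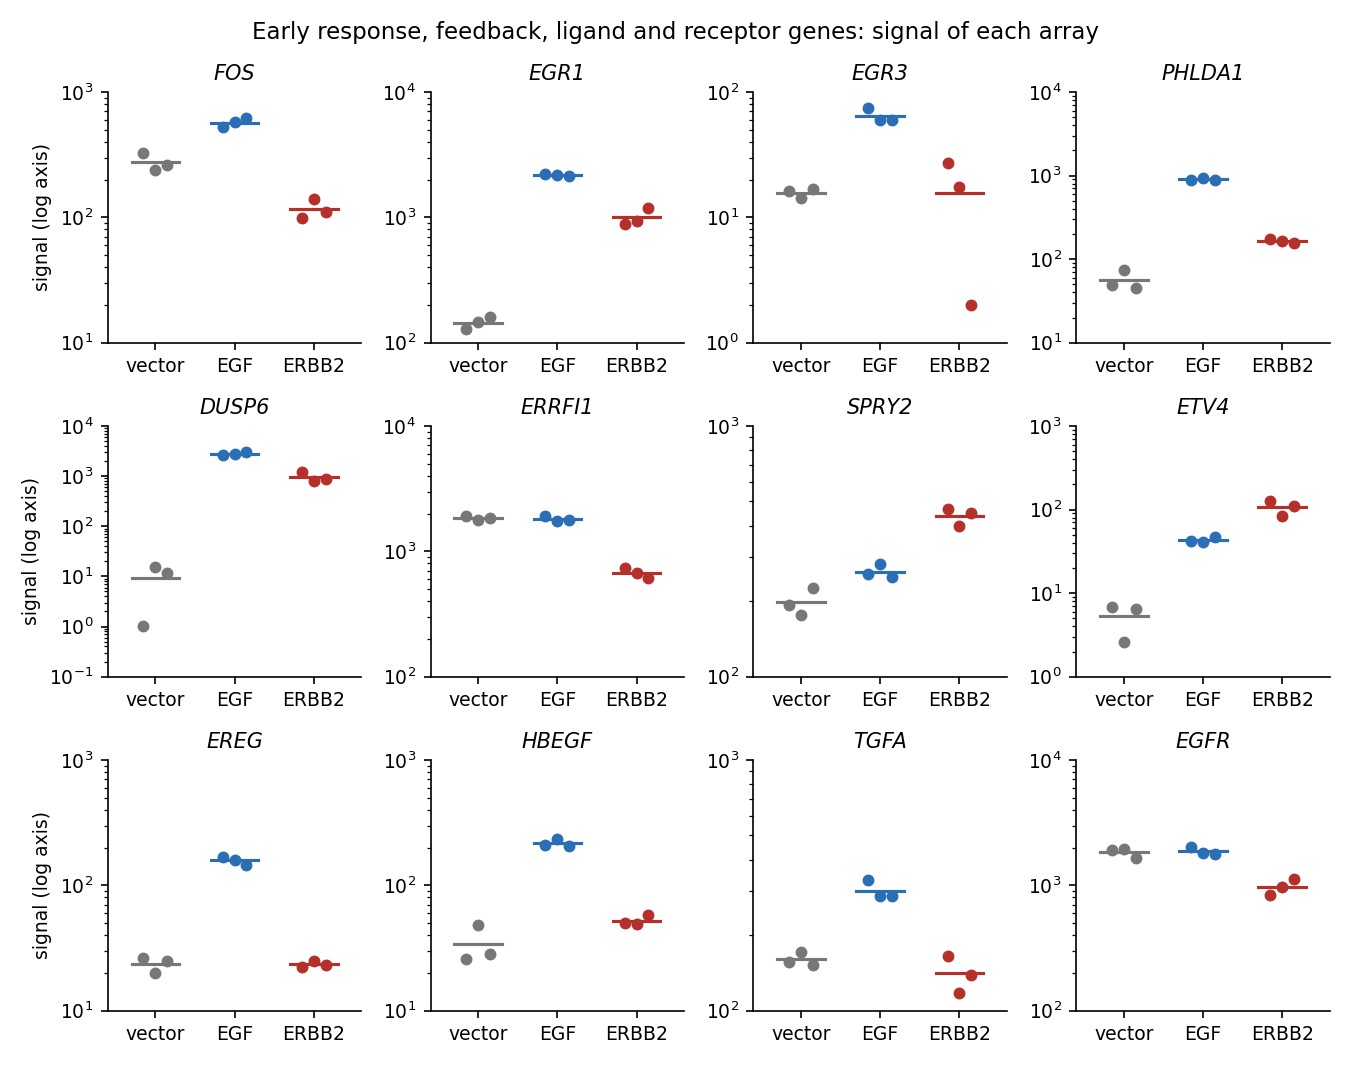
Signal of each array on a log axis, with one panel per gene, one point per array and a line at the mean of each group of 3. FOS, EREG, HBEGF and TGFA are highest in the EGF arrays, and SPRY2 and ETV4 are highest in the arrays labelled ERBB2. The 12 genes were chosen for display, and members whose groups overlap, such as DUSP4, are not shown. That these 2 groups do not overlap for the 12 genes only describes the choice. Of all genes tested, 43.1% do not overlap.

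Cell cycle genes differed in nearly all members, and in the other direction. Of 53 measured (55 listed) genes of DNA replication and the G1/S transition, 47 were called higher in the arrays labelled ERBB2 and 1 lower, with a median change of 1.06 and 32 called at 2-fold or more. Of 49 mitosis genes, all measured, 48 were called higher and none lower, with a median of 1.48 and 44 at 2-fold or more. All 49 mitosis changes were positive. Among further probe sets of these genes, 24 of 40 were called higher in the first list and 30 of 38 in the second, and none lower. Over all single-gene probe sets 12.8% were called higher and 13.1% lower, and over all genes 12.8% and 16%.

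CDC45, part of the helicase that opens DNA at replication origins, read 196, 204 and 236 against 47.8, 33.6 and 32.9 and 11.5, 20.01 and 2.34 in vector arrays. No 2 of the 3 groups overlapped (2.09 ± 0.22, adjusted p = 7.79e-07). RRM2, the subunit of ribonucleotide reductase made in S phase, read 1703, 2288 and 2303 against 517, 626 and 554. Here too the EGF arrays were above the vector arrays at 106, 108 and 78.1 and below the arrays labelled ERBB2 (1.85 ± 0.13, adjusted p = 1.83e-09). The exonuclease EXO1 (1.97) and the helicase subunits MCM5 (1.86) and GINS2 (1.81) were higher too. GMNN, the licensing inhibitor geminin (0.13), and SLBP, the histone mRNA binding protein (0.14), were not called. RFC5, a clamp loader subunit, was the member called lower (-0.66, adjusted p = 0.000324). The mean of the RFC5 probe sets was called higher (0.520), so its direction depends on the probe set.

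PLK1, a kinase of mitotic entry, read 453, 494 and 471 in the arrays labelled ERBB2 against 81.05, 118 and 86.1 with EGF. The EGF arrays overlapped the vector arrays at 71.8, 96.04 and 81.6, and the arrays labelled ERBB2 had 4.97 times the EGF mean (2.15 ± 0.14, adjusted p = 1.21e-09). CDC20, which activates the anaphase ubiquitin ligase, read 1138, 1165 and 1163 against 235, 287 and 261 and 242, 299 and 304 in vector arrays. Its vector and EGF values also lay together (2.08 ± 0.10, adjusted p = 1.86e-11). Cyclin A2 (CCNA2, 2.10), the checkpoint kinase BUB1B (1.94) and CDK1 (1.94), the kinase that drives mitosis, were higher as well. SPC24, a kinetochore protein, was the member not called (0.35, adjusted p = 0.341). Against vector arrays, EGF gave a median of 0.54 for the replication list, with 29 members called higher, and of 0.16 for mitosis, with 13 higher and 3 lower. The arrays labelled ERBB2 gave 1.64 with 50 higher, and 1.68 with 48 higher. Of all genes, EGF against vector called 36.2%, with 17.2% higher, and ERBB2 against vector 45.9%, with 20.9% higher. These comparisons share arrays with the direct one. Beside both lists, the ACTB control ratio and the 18S controls were higher in the arrays labelled ERBB2, as given above, and their part was not tested.

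Promoters of these members were searched for letters of known elements. Replication genes are classical targets of E2F, and many mitosis genes carry the CHR element bound by the DREAM and MuvB complexes. In the 250 bases before the first listed start, the E2F motif (TTTGGCG or TTTCGCG or TTTCCCG or TTTGCCG on either strand) was held by 19 of 47 replication genes with a RefSeq promoter, or 40.4%, against 10.7% of 11051 tested genes and 7.35% of 27305 promoters. For mitosis genes the share was 11.6% (5 of 43). The CHR letters (TTTGAA, either strand) were held by 22 of 43 mitosis genes, or 51.2%, against 9.09% of tested genes and 13.6% of all promoters, and by 1 of 47 replication genes. A match is a description of the letters and no proof of a site. The promoters shown are those of the members with large changes, a match and a single listed start, from RefSeq on GRCh38.p14, 5' to 3' in the direction of the gene, with the match in capitals. The mitosis promoters were added after the values had been seen.
GINS2 (chr16:85688955-85689204, minus strand): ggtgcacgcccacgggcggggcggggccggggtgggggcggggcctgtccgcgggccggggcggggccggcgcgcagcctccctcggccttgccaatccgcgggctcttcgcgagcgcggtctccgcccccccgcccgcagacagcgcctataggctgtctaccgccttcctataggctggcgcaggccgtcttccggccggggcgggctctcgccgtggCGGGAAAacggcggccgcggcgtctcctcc
TYMS (chr18:657403-657652, plus strand): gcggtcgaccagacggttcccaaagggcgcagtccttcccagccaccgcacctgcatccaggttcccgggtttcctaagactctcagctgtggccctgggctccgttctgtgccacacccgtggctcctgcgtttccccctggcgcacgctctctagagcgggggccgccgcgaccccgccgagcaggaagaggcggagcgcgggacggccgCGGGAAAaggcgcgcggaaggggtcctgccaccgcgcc
PLK1 (chr16:23678639-23678888, plus strand): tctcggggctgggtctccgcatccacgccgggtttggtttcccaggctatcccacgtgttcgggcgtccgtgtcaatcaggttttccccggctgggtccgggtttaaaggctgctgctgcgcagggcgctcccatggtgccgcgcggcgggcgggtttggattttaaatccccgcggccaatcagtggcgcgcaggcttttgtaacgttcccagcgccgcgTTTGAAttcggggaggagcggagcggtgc
CDC20 (chr1:43358731-43358980, plus strand): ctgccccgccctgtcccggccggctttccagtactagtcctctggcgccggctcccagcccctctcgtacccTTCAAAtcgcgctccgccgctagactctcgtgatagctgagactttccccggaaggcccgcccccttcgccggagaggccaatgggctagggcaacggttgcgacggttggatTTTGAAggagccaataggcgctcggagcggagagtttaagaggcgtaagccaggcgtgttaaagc
The E2F match ends 24 bases before the start in GINS2 and 32 bases before it in TYMS, which encodes thymidylate synthase and was at 1.75. In PLK1 the CHR match ends 24 bases before the start, and CDC20 has 2, the nearer ending 60 bases before it.

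**Figure D4:**
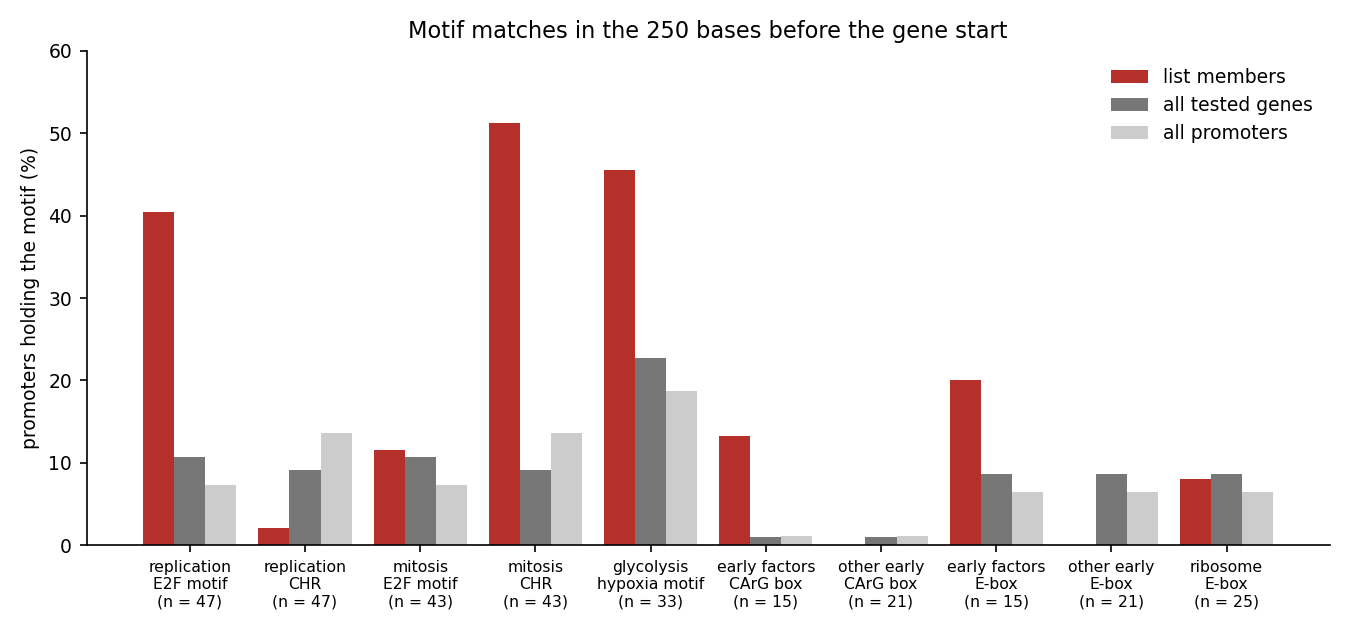
Bars give the percentage of promoters that hold a motif in the 250 bases before the start, for members of a list (red), all tested genes (dark grey) and all promoters (light grey). E2F matches are in 40.4% of replication genes and CHR matches in 51.2% of mitosis genes, while each motif is near or below the tested-gene share in the other list.

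Inhibitors of the cycle and p53 targets had no common direction. Of 20 measured, 6 were called higher and 4 lower, with a median of 0.06 that became -0.055 with equal array medians and -0.005 after quantile normalization, and lay between -0.012 and 0.056 with each array left out. CDKN1A, which encodes p21, read 474, 493 and 460.0 against 262, 193 and 178 and 799, 930.1 and 828 in vector arrays. The arrays labelled ERBB2 lay between the other groups without overlap (1.13 ± 0.12, adjusted p = 5.59e-07). DDB2, a DNA damage sensor, read 305, 261 and 285 against 52.6, 95.9 and 79.01. The EGF arrays were lowest for it (1.73 ± 0.16, adjusted p = 9.16e-08), with vector arrays at 229, 187 and 237. CDKN1C, which encodes p57, went the other way (-1.08), as did TP53I3 (-0.71). In the main fit 50% of this list was called, against 28.8% of all genes. With equal array medians 3 members in place of 6 were called higher.

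Genes driven by FOXO or by growth factor withdrawal, when called, were nearly all lower in the arrays labelled ERBB2. Of 31 measured (32 listed), 16 were called lower and 1 higher (median -0.55, or -0.288 with probe sets averaged), and 9 were lower by 2-fold or more. That is 54.8% called against 28.8% of all genes. SELENOP, a secreted selenium carrier, read 75.5, 80.1 and 68.03 in the arrays labelled ERBB2, 1961, 1768 and 1792 with EGF and 4662, 4867 and 5034 in vector arrays. The EGF mean was 24.7 times that of the arrays labelled ERBB2 (-4.36 ± 0.08, adjusted p = 7.02e-18). TXNIP, which restrains glucose uptake, read 322, 304 and 315 against 1408, 1340 and 1346 and 3772, 3996 and 3958 in vector arrays. BTG1, an antiproliferative factor, read 264, 319 and 249 against 1085, 988 and 1025 and 4332, 4831 and 4985. For both genes the 3 groups were fully separate, with vector highest (log2 changes -2.07 and -1.85). ARRDC3, an alpha-arrestin like TXNIP, had another order. It averaged 58.5 ± 10.1 (SD, n = 3) against 349 ± 1.57, and the vector arrays, at 343 ± 37.8, overlapped the EGF arrays (-2.30 ± 0.13, adjusted p = 8.48e-11). IRS1, the insulin receptor adaptor, was high in the EGF arrays alone, reading 50.5, 51.2 and 38.5 against 146, 129 and 153 and 39.9, 45.1 and 31.1. BCL2L11, which encodes the death protein BIM, was the member called higher (0.50, adjusted p = 0.00554). Its means were 206 against 140.8, both under the 495.9 of vector arrays. Catalase (CAT) was at 0.01 and KLHL24 at -0.06, neither called. Against vector arrays, 28 of the 31 were called lower in the arrays labelled ERBB2 and 28 in the EGF arrays, where 25.1% and 19% of all genes were.

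Genes of glycolysis and of the hypoxia response were mostly higher after EGF. Of 39 measured (42 listed), 26 were called lower in the arrays labelled ERBB2 and 1 higher (median -0.49). That is 69.2% called against 28.8% of all genes. The higher one was ENO1, an enolase (0.19, adjusted p = 0.0489). Its call was lost in 10 of 20 alternatives, including those without ERBB2 replicates 2 (adjusted p = 0.165) or 3 (adjusted p = 0.160), EGF replicates 2 (adjusted p = 0.116) or 3 (adjusted p = 0.185), or vector replicate 3 (adjusted p = 0.0672), and the change was 0.075 with equal array medians. NDRG1, a stress-response protein induced by hypoxia, read 218, 267 and 309.7 against 4333, 3209 and 3321, and the vector arrays stood between at 1658, 1913 and 1648. It was the member furthest apart (-3.69 ± 0.12, adjusted p = 1.5e-14). HK2, the inducible hexokinase, read 232, 162 and 130.2 against 522, 508 and 529 and 128, 129.7 and 99.6 in vector arrays. The EGF arrays were above both other groups (-1.53 ± 0.15, adjusted p = 3.82e-07). The hormone STC1 (-2.61), carbonic anhydrase CA12 (-1.97) and the mitophagy receptor BNIP3 (-1.49) were lower too. BNIP3L, a relative of BNIP3, was at -0.05 and INSIG2 at -0.09. Neither was called, although the mean of the BNIP3L probe sets was (-0.268, adjusted p = 0.0283).

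The core hypoxia motif (ACGTG, either strand) was held by 15 of 33 glycolysis and hypoxia promoters, or 45.5%, against 22.7% of tested genes and 18.7% of all promoters. Shown are the members with large changes, a match and a single listed start.
BNIP3 (chr10:131981924-131982173, minus strand): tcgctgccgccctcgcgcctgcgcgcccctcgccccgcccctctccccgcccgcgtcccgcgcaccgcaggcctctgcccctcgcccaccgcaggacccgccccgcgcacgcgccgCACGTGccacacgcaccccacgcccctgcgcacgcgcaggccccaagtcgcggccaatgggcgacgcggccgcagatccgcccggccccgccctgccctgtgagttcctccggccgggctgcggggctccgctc
ANGPTL4 (chr19:8363905-8364154, plus strand): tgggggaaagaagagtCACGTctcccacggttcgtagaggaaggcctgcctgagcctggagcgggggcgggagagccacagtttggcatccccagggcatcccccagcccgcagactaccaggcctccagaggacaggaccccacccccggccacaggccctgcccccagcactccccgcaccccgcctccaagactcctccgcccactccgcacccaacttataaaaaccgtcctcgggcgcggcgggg
The BNIP3 run in capitals reads as the motif on both strands, so its 2 matches overlap. ANGPTL4, a secreted inhibitor of lipoprotein lipase, has its match far from the start and was at -1.34. For the immediate early factors the CArG box, which binds SRF, was held by 2 of 15 promoters (13.3%) against 1.02% of tested genes, and by 0 of 21 promoters of the other early genes. EGR1 is shown by the same rule as the promoters above. It holds 2 such boxes and stood high in both groups.
EGR1 (chr5:138465229-138465478, plus strand): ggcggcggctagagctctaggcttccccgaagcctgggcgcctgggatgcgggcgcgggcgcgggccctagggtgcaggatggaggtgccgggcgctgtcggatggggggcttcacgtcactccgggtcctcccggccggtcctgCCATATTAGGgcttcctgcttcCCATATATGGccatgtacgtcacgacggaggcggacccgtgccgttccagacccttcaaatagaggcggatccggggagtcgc
The E-box (CACGTG) was held by 3 of 15 early factors (20.0%), 0 of 21 other early genes and 2 of 25 ribosome assembly genes (8.0%), against 8.68% of tested genes.

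Amino acid genes, many of them targets of the stress factor ATF4, were more often called higher than lower in the arrays labelled ERBB2. Of 27 measured, 15 were called higher and 2 lower, or 63% called against 28.8% of all genes (median 0.34). ASNS, asparagine synthetase, read 1923, 1875 and 1554 against 226, 224 and 262 and 166, 194 and 184 in vector arrays. The 3 groups did not overlap, and the mean of the arrays labelled ERBB2 was 7.51 times the EGF mean (2.82 ± 0.11, adjusted p = 2.33e-13). PHGDH (2.07) and PSAT1 (1.14), enzymes of serine synthesis, the cystine carrier SLC7A11 (1.61) and the tryptophan tRNA synthetase WARS1 (1.24) were also called higher. The amino acid carrier SLC38A2 (-0.76) and the factor CEBPB (-0.48) were lower. TRIB3, a pseudokinase also induced by ATF4, read 838, 794 and 674 against 718, 785 and 764. Its groups overlapped (0.02 ± 0.10, adjusted p = 0.923), and both were above the vector arrays at 163, 177 and 179. The mean of its probe sets was called higher (0.295, adjusted p = 0.0415).

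Of 23 sterol and fatty acid genes 7 were called higher and 6 lower, with a median of 0.05 that turned to -0.058 with equal array medians and lay between 0.096 and 0.102 without ERBB2 replicates 2 or 3 or EGF replicates 1 or 3, each left out in turn. The desaturase FADS2 was higher (0.93) and the sterol oxidase MSMO1 lower (-0.73), while FASN, fatty acid synthase, was at 0.02 and not called. In this list 56.5% were called, against 28.8% of all genes. Of 29 ribosome assembly genes 8 were called lower and 1, FBL (0.32), higher (median -0.09), with WDR43 at -0.60 and NIP7 at -0.51. With 31% called, this list was near the 28.8% of all genes. The lower count became 4 without a variance trend and also 4 when probe sets of a gene were averaged. Of 24 chaperone genes 7 were called higher and 6 lower (median 0.04, or -0.072 with equal array medians), the higher ones 4 with equal array medians or without a variance trend. HSPB1, a small heat shock protein, was lower by the most. It read 1359, 1303 and 1245 against 5617, 5428 and 5830 and 9680, 10261 and 10738 in vector arrays (-2.10 ± 0.07, adjusted p = 1.33e-14). DNAJB1, a cochaperone, was higher (0.81), with means of 725 against 407.1 and 821.7 in vector arrays. In the main fit 54.2% of the chaperone list was called, against 28.8% of all genes.

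Glucocorticoid-induced genes were mostly lower in the arrays labelled ERBB2, in cells whose growth medium had held hydrocortisone. Of 20 measured, 16 were called lower and none higher (median -0.63, or -0.369 with probe sets averaged). That is 80% called against 28.8% of all genes. GLUL, glutamine synthetase, read 714, 681 and 711 against 5987, 5541 and 5340 and 10094, 11347 and 10019 in vector arrays. MAOA, monoamine oxidase A, read 162, 124 and 102 against 1013, 905 and 811 and 3976, 3898 and 3857. SULT1E1, the estrogen sulfotransferase, read 48.3, 36.9 and 19.8 against 520.2, 577 and 608 and 1263, 977 and 1324. Each of the 3 ran in the order vector, EGF, ERBB2 without overlap (log2 changes -2.97, -2.69 and -3.56). ALOX15B was at -1.66. The metallothioneins MT2A (0.06) and MT1X (0.07), very bright on all arrays, were not called, but after quantile normalization they were called higher (0.126 and 0.143). The mean of the MT1X probe sets was called lower (-0.342).

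Markers of the basal mammary cell were mostly lower. Of 13 measured among 20 basal keratin and hemidesmosome genes, 10 were called lower and 1 higher (median -0.50). That is 84.6% called against 28.8% of all genes. The higher one was CDH3, P-cadherin (0.25, adjusted p = 0.034). Its call was lost in 7 alternatives, including those without ERBB2 replicates 1 (adjusted p = 0.123) or 3 (adjusted p = 0.0918) or any EGF array (adjusted p from 0.0504 to 0.137). KRT14 read 153, 138 and 156 in the arrays labelled ERBB2 and 1814, 1730 and 1730 with EGF, and KRT15 read 707, 632 and 614 against 7994, 7957 and 7289. Neither keratin overlapped, and the EGF means were 11.8 and 11.9 times those of the arrays labelled ERBB2. KRT5, their basal partner, read 6390, 6483 and 5809 against 10072, 8508 and 7962 and had a small change (-0.50 ± 0.08, adjusted p = 8.08e-05). ITGA6, the laminin-binding integrin, was high in the EGF arrays alone. It read 530.0, 556 and 690.1 against 1854, 1467 and 1719 and 804, 644 and 614 in vector arrays (-1.48 ± 0.12, adjusted p = 1.04e-08). LAMB3, a laminin chain, was at -0.66. DSG3, a desmosomal cadherin, was at -0.01 and not called, though the mean of its probe sets was called higher (0.298).

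Luminal and barrier genes were mixed. Of 21 measured among 30 luminal and epithelial genes 7 were called higher and 4 lower (median 0.25, or 0.029 without the filter). That is 52.4% called against 28.8% of all genes. ALDH1A3, a retinaldehyde dehydrogenase, read 2258, 2138 and 2276 against 859.8, 846 and 784 and 156, 136 and 144 in vector arrays, so each group stood apart (1.41 ± 0.09, adjusted p = 3.95e-10). The tight junction protein CLDN1 was higher (1.42), and the mucin MUC1 (-1.91) and the epithelial factor EHF (-1.67) were lower. CDH1, E-cadherin, read 1048, 1093 and 1059 against 1411, 1155 and 1057. It overlapped and was not called (-0.17, adjusted p = 0.219), but was with equal array medians (-0.277, adjusted p = 0.0307). Of 21 measured among 35 cornified envelope and defence genes 7 were called lower and 2 higher (median -0.46, or -0.251 without ERBB2 replicate 3 and -0.208 without the filter). In the main fit 42.9% of these were called. The higher ones were S100A9, which read 3540, 2637 and 2303 against 779, 836 and 863, and its partner S100A8 (1.19). The crosslinking enzyme TGM1 (-2.08) and the envelope protein SPRR1B (-1.04) were lower.

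Mesenchymal, matrix and cytoskeletal genes were mixed too. Of 25 mesenchymal genes 8 were called lower and 4 higher (median -0.32, or -0.158 without ERBB2 replicate 1 and -0.138 with probe sets averaged). In the main fit 48% were called, against 28.8% of all genes. The transcription factors SNAI2, at 257, 263 and 251 against 1508, 1389 and 1375, and TWIST1 (-1.68) were lower, as was the collagen crosslinker LOX (-1.86). SNAI2 did not overlap (-2.40 ± 0.09, adjusted p = 9.35e-14). Thrombospondin THBS1, at 1592, 1268 and 1330 against 301, 268 and 269.8, and the cadherin CDH11 (1.88) were higher. Vimentin (VIM, -0.07) and TGFBI (-0.00) were bright and not called, though VIM was with equal array medians (-0.182, adjusted p = 0.0432). Of 25 actin, SRF and YAP targets 12 were called higher and 5 lower (median 0.31), and 7 were called higher with equal array medians. In the main fit 68% of these targets were called. LCP1, an actin bundler of blood cells and carcinomas, read 451, 382 and 384 against 6.43, 12.3 and 4.37 and 18.03, 33.9 and 24.5 in vector arrays (4.16 ± 0.19, adjusted p = 5.28e-12). CCN2, a YAP target like CCN1, read 301, 341 and 237 against 69.6, 65.4 and 56.9 (1.94 ± 0.19, adjusted p = 2.24e-07). CAVIN2, a caveolar coat protein, was lower (-1.92), and AJUBA (0.01) and CNN2 (-0.10) were not called.

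Of 14 measured among 22 extracellular proteases and inhibitors 6 were called lower and 1 higher, where 16% and 12.8% of all genes were. The median was -0.27, but -0.182 without ERBB2 replicate 2 and 0.043 without the filter. TIMP3, an inhibitor of metalloproteinases, read 64.3, 88.9 and 81.8 against 679.8, 580.3 and 571 (-2.74 ± 0.11, adjusted p = 6.14e-13). SERPINE2, a protease inhibitor, was higher (1.57), and PLAU, urokinase, lower (-0.99). Of 21 measured among 34 cytokine and NF-kB genes 6 were called lower and 1 higher, or 33.3% called against 28.8% of all genes (median -0.29, or -0.144 without ERBB2 replicate 3). The higher one was IL6, the interleukin (0.70, adjusted p = 0.049), whose call was lost in 12 of 19 alternatives, each ERBB2 or EGF array left out among them (adjusted p from 0.0576 to 0.165). CCL20, a chemokine, read 371, 361 and 439 against 790.1, 833 and 809.7 and 68.2, 35.9 and 67.6 in vector arrays, so that both groups were above vector and apart from each other (-1.03 ± 0.15, adjusted p = 3.39e-05). TNFAIP3, the NF-kB inhibitor A20, was lower (-1.66), and NFKB1 (-0.01) and ICAM1 (0.05) were not called. Of 26 TGF-beta, BMP and Notch response genes 8 were called lower and 3 higher (median -0.20, or -0.104 without ERBB2 replicate 1), or 5 lower when probe sets of a gene were averaged. In the main fit 42.3% were called, against 28.8% of all genes. TGFB1 (-1.08), BMP2 (-1.63) and the Notch ligand JAG1 (-1.01) were lower and LTBP2, a matrix binding protein, higher (1.31). The activin antagonist FST (0.95, adjusted p = 0.024) was also called higher, a call lost in 7 alternatives, including those without ERBB2 replicates 1 (adjusted p = 0.0696) or 3 (adjusted p = 0.111) or EGF replicates 1 (adjusted p = 0.0585) or 2 (adjusted p = 0.0911).

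**Figure D5:**
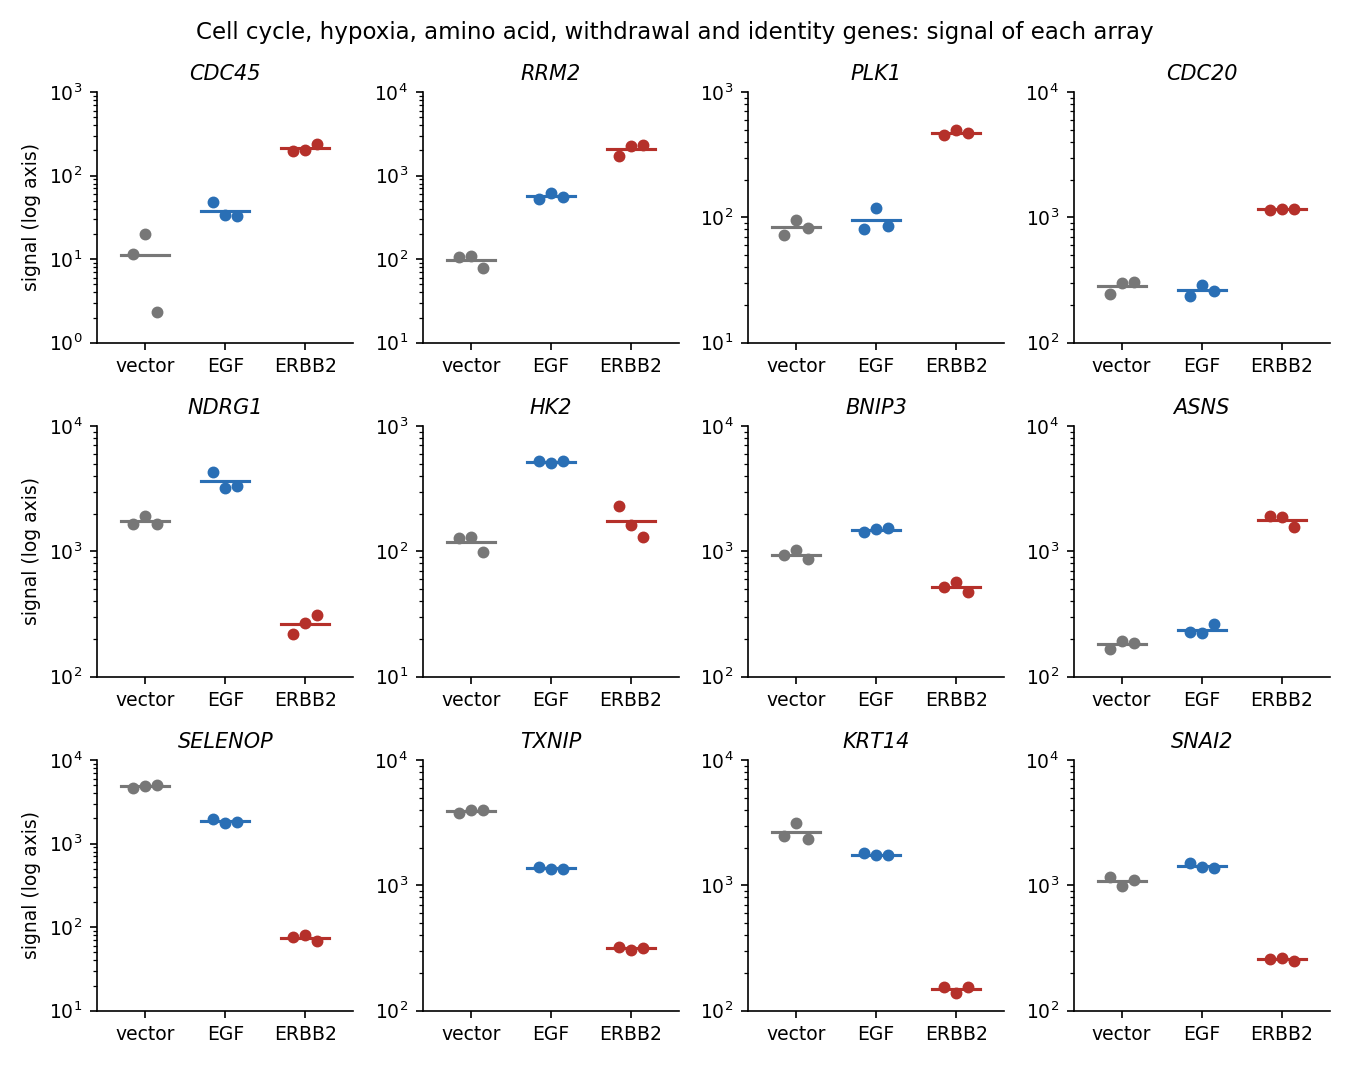
Signal of each array on a log axis, with one panel per gene, one point per array and a line at the mean of each group of 3. CDC45, RRM2, PLK1, CDC20 and ASNS are highest in the arrays labelled ERBB2, and NDRG1, HK2, BNIP3, SELENOP, TXNIP, KRT14 and SNAI2 are lower there than in the EGF arrays.

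The largest differences lay partly outside these lists. They were picked as called genes with separate groups, so call and separation only describe the choice. Of all genes tested, 43.1% had groups that did not overlap. VHRT, a long noncoding RNA, read 593, 467 and 471 against 0.623, 1.9 and 0.471 and 1.53, 0.7 and 1.01 in vector arrays. The low values cannot be placed above or below background, since detection calls were not used here, and the size of its change (4.94) depends on the 16 added. CYP1B1, a cytochrome P450 that oxidizes estrogens, read 2394, 2387 and 2417 against 214, 209 and 179.5 and 367, 375 and 347. SLC26A2, the sulfate carrier, read 4246, 3990 and 4667 against 845, 713 and 819. Neither was dim in any group, and their means in the arrays labelled ERBB2 were 11.9 and 5.43 times the EGF means. The other higher genes were PGBD5 (3.08), PKIB, an inhibitor of protein kinase A (2.51), IGFL1 (2.42), SMOC1 (2.31), the carboxylesterase CES1 (2.24), KRT80 (2.24), the linker histone H1-3 (2.23) and occludin (OCLN, 2.23), besides LCP1, ASNS, FAP and THBS1.

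Among the lower genes FGFR3, a fibroblast growth factor receptor, read 50.1, 55.4 and 50.1 against 1097, 827 and 873 and 657, 724 and 619 in vector arrays. The arrays labelled ERBB2 alone were low (-3.80 ± 0.11, adjusted p = 8.19e-15). GJB2, a connexin, read 84.7, 115 and 73.3 against 942, 879 and 914 and 23.9, 28.2 and 24.6. For GJB2 the EGF arrays were high and the other groups closer to each other (-3.13 ± 0.14, adjusted p = 4.32e-12). IGFBP6 (-3.41), the semaphorin SEMA6A (-2.92), the selenium-binding SELENBP1 (-2.79), the folate receptor FOLR1 (-2.65) and MTSS1, an actin-linked membrane protein (-2.64), were the others, besides SELENOP, NDRG1, SULT1E1, KRT15, KRT14, GLUL, TIMP3 and MAOA.

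Probe sets of 1 gene did not always point the same way. Of 1339 genes with 2 or more called probe sets, 1116 had all of them in one direction and 223 (16.7%) in both. MET, the hepatocyte growth factor receptor, was at -1.50 by its brightest probe set (502.3 ± 78.7 against 1442 ± 49.1, SD, n = 3) and at 1.06 by another (148.9 ± 11.3 against 63.4 ± 10.9). SRRM2, a splicing factor, gave 1.42, -1.27 and 0.63. The nuclear RNA MALAT1 gave 1.05 at one probe set and -1.03 at another, SECISBP2L 1.10 and -0.98, and THRAP3 1.35 and -1.01. Probe sets of a gene read different parts of its transcripts, and the sources used here do not give their positions, so a gene level direction for these 5 genes is not given.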

How the data were processed

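The 9 arrays were one-colour Affymetrix expression arrays with 54675 probe sets, 3 arrays a group. The deposited values are linear signal intensities made by the authors with MAS5, per the submitters' processing notes; version, settings and target: not given in the sources used here, and every column has the same trimmed mean of 100.03. Detection calls were not used. Probe sets were named through GEO's platform annotation: 41091 name 1 gene, 1801 several and 11777 none, and 62 control probe sets were left out of the fit. Probe sets above the 40th percentile of mean signal were kept (32768), 16 was added before log2, and 1 limma model (limma 3.58.1, R 4.3.3) of the 3 group means was fitted over 9 arrays with a variance trend and Benjamini-Hochberg adjustment, giving 6 residual degrees of freedom. The number of arrays limits the precision, and 3 against 3 cannot go below an exact permutation p of 0.1.

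The gene lists hold 780 genes, of which 648 were tested, 69 fell below the filter and 63 had no single-gene probe set. Members and lists were chosen with earlier results of these data known. Genes named are the 15 largest called changes each way with separate groups, and up to 5 called members of a list and up to 2 in the other direction. Up to 2 uncalled members of each list were also named, those with the smallest changes among its brighter members. Their small changes therefore only describe the choice. Also named are any member of the immediate early factor, ERK feedback, EGF ligand and receptor lists, and 5 genes with opposed probe sets. TYMS and ANGPTL4 are named by the promoter rule. Promoter sequences are from RefSeq (GRCh38.p14). The fit was tested on simulated data. The alternatives tried were other pseudocounts and filters, quantile or equal-median scaling, no variance trend, array weights, 6 arrays only, a replicate block, each array left out and averaging the probe sets of each gene.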

Additional observations from a re-analysis of the deposited data

Results flagged for a closer look

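Probe sets that name no gene were in the fit and in the counts over all 32768 probe sets, but not in the gene results. Of 5127 tested 634 were called, where 7790 of all 32768 were (23.8%). Those shown have the largest called changes among unnamed probe sets whose higher group lay above every vector array. Call and separation from vector arrays therefore only describe the choice. The probe set 215189_at was at 2.7 on the log2 scale, ERBB2 minus EGF, with 315 ± 73.3 (SD, n = 3) against 34.2 ± 4.68 and 40.1 ± 17.2 in vector arrays. The probe set 230746_s_at was at -2.6, with 48.1 ± 7.8 against 371 ± 15.8 and 136 ± 10.4 in vector arrays. The probe set 208540_x_at was at -2.03, with 1051 ± 287 against 4274 ± 574 and 2665 ± 1013 in vector arrays. The 3' control of 18S ribosomal RNA was left out of the fit. Its mean was 12587 in the arrays labelled ERBB2 against 3380 ± 1330 in the vector arrays.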

How the results depend on the processing

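Of 173 named genes that were called, 141 stayed called in the same direction under every one of the 20 alternatives, 31 lost the call in 1 or more and RFC5 reversed; of 77 not called, 21 became called. Called probe sets numbered 7790, between 6165 without a variance trend and 8116 with equal array medians, and 6246 to 7886 with each array left out. The fit with a replicate block gave 7623. Same-numbered ERBB2 and EGF arrays did not deviate together (correlations 0.0011, -3e-04 and -0.0019). These values cannot tell whether same-numbered samples were handled as pairs, which the sources do not say. Called changes of at least 2-fold, 1404, were 2294 with a pseudocount of 1 and 575 with 64. With equal array medians, members called higher were 3 for CDK inhibitors, 4 for chaperones, 7 for actin targets and 3 for interferon genes. Without a variance trend, ribosome assembly had 4 lower and chaperones 4 higher. When the probe sets of each gene were averaged, members called lower were 2 for EGF ligands, 4 for ribosome assembly, 5 for TGF-beta and 1 for the clock. Leaving out arrays gave 1 to 2 lower for the BCL2 family. The median of CDK inhibitors and p53 targets was -0.022 with a filter at the 60th percentile, -0.005 after quantile normalization, -0.055 with equal array medians and -0.012 to 0.056 with arrays left out. The median was -0.058 for sterol genes with equal array medians and 0.043 for proteases without a filter. With probe sets averaged, DSG3 was at 0.298, MT1X at -0.342, RFC5 at 0.520, SPATA18 at 0.637, TGFBR2 at 0.287 and TOB1 at 0.747. Over all alternatives the median of replication genes ranged from 0.811 to 1.221, of mitosis genes from 1.152 to 1.633, of glycolysis genes from -0.597 to -0.401, of basal genes from -0.611 to -0.403 and of other early genes from -0.452 to -0.228. Medians that an array left out moved by over 1.5 times were those of EGF ligands, ERBB receptors, CDK inhibitors, sterol, chaperone, cornified, mesenchymal, cytokine, protease, interferon, TGF-beta, clock and BCL2 genes and of fibroblast and blood markers; that of the BCL2 family, -0.13, was -0.227 without ERBB2 replicate 1. The median of glucocorticoid-responsive genes, -0.63, was -0.369 with probe sets averaged. The causes were not tested. Signal limits the calls: of 4 equal bins of probe sets by signal, 4.67% were called in the dimmest and 49.3% in the brightest.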

Other observations

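Of 30 interferon response genes, 5 were called higher and 4 lower in the arrays labelled ERBB2, and 3 were higher with equal array medians. That is 30% called against 28.8% of all genes. The median, -0.05, turned to 0.019 without ERBB2 replicate 2, 0.008 without ERBB2 replicate 3, 0.005 without EGF replicate 3 and 0.006 without the filter. IFI44L read 38.4, 38.4 and 41.2 against 125, 107 and 116 and 395, 335 and 323 in vector arrays. It ran in the order vector, EGF, ERBB2 without overlap (log2 change -1.25 ± 0.14 SE, limma adjusted p = 9.35e-07). OAS1, an antiviral synthetase, was lower (-0.74) and HERC6 higher (0.73), and IRF1 (0.03) and IFIT3 (-0.10) were not called. USP18, which removes ISG15, was called higher (0.68, adjusted p = 0.0259), but not without ERBB2 replicates 1 (adjusted p = 0.105) or 2 (adjusted p = 0.106), without EGF replicates 1 (adjusted p = 0.0812) or 3 (adjusted p = 0.0565), or in 3 further alternatives.

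Of 14 circadian clock genes 3 were called lower and 1 higher, or 28.6% called against 28.8% of all genes, and 1 lower when probe sets of a gene were averaged. The median was -0.13, between -0.232 and -0.126 with each array left out. BHLHE40, a repressor of clock genes, was lower (-0.52), but not with its probe sets averaged (adjusted p = 0.114). The calls of BMAL1 (-0.42, adjusted p = 0.0333) and NR1D2 (0.49, adjusted p = 0.0268) were not stable. BMAL1 lost its call in 7 alternatives, including those without ERBB2 replicates 2 (adjusted p = 0.0553) or 3 (-0.289, adjusted p = 0.181) or EGF replicates 2 (adjusted p = 0.107) or 3 (adjusted p = 0.168). NR1D2 lost its call in 6, including those without ERBB2 replicates 1 (adjusted p = 0.0657) or 3 (adjusted p = 0.063) or EGF replicate 2 (adjusted p = 0.112). NFIL3, a repressor of clock output, read 246, 246 and 224 against 453, 452 and 499.9 and 1243, 1326 and 1277 in vector arrays (-0.93 ± 0.09, limma adjusted p = 2.02e-07), and CLOCK was at -0.14. Of 12 BCL2 family genes 2 were called lower and 1 higher, or 25% called against 28.8% of all genes. BAK1, a pore-forming member, was lower (-0.58) but not called without ERBB2 replicate 2 (-0.484, adjusted p = 0.0543). PMAIP1, which encodes the death protein NOXA, read 207, 213 and 188 against 73.9, 86.8 and 79.1 (1.19 ± 0.14, adjusted p = 3.67e-06). MCL1, which NOXA binds, read 2517, 2682 and 2237 against 4801, 4653 and 4777 and was lower (-0.94 ± 0.08, adjusted p = 6.07e-08). Both were free of overlap.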
